A study of Mus musculus with 12 samples.

Results

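Emx1, Emx2, Pax6, Eomes, Nr2e1, Lhx2, Lhx9, Otx1 and Otx2 are 9 genes that encode transcription factors (TFs) of the dorsal or whole embryonic forebrain. They were chosen by symbol, and all 9 were found among the 47069 gene identifiers of the deposited table. Their RNA was measured by stranded total RNA-seq in sorted Pdgfra/GFP+ cells before birth (embryonic day, E13.5) and after it (postnatal day 7, P7), each from brain and from spinal cord, which makes 4 groups of 3 libraries. All mice were heterozygous for Pdgfra-H2BGFP, a knock-in allele in which the Pdgfra gene drives a nuclear green fluorescent protein (GFP). Pdgfra is a receptor gene used to mark oligodendrocyte precursor cells (OPCs), the cells that give rise to the myelin-forming oligodendrocytes, and the protein is known to persist into early oligodendrocyte differentiation. Per the methods, brain meant forebrain, each library came from a pool of animals, E13.5 tissue was dissociated mechanically and P7 tissue with papain, and at P7 the cells with bright GFP were taken, so age, dissociation and gate cannot be told apart. The question was which regional factors of the embryonic forebrain were kept in Pdgfra/GFP+ cells at P7 and which were lost.

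Forebrain progenitors are given their position by combinations of TFs. Emx1, Emx2 and Pax6 pattern the cortical neuroepithelium, where Emx2 and Pax6 are known for opposed gradients, Lhx2 sets cortical identity against the hem, and Otx1 and Otx2 mark anterior neural tissue. Nr2e1 (also called Tlx) maintains neural progenitors, Eomes (also called Tbr2) marks the intermediate progenitors of cortical neurons, and Lhx9 is known from diencephalic and other dorsal neurons, including a class of spinal interneurons.

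Values are CPM, read counts scaled to a common library size, with the authors' own rescaling. Recovered reads numbered 12566345 to 38790312 per library, and the value of 3 reads, used as a floor, ranged from 0.0792 to 0.506 CPM, the highest being that of E13.5 spinal cord replicate 3. In that library protein-coding genes held 41.0% of reads, against 82.4% to 91.2% in the other 11. The gate was checked with 7 OPC genes, whose summed level was 1258 to 2352 CPM in E13.5 brain and 10984 to 11448 CPM in P7 brain, and region with 5 spinal cord Hox genes, which were called lower in brain than in spinal cord at both ages (5 of 5 each time). Markers of other cells were also measured: 7 pericyte and leptomeningeal genes summed to 2581 to 3705 CPM in E13.5 brain and 693 to 918 CPM in P7 brain, with 5 of 7 called lower with age and 1 higher. These 7 summed to 5337 to 5798 CPM in E13.5 spinal cord, with 4 of 7 called lower in brain at that age and 0 higher. The 7 OPC genes summed to 631 to 1062 CPM in E13.5 spinal cord, with 5 of 7 called higher in brain and 0 lower. Of 8 neuron genes 2 were called lower with age in brain and 0 higher, with a median of −0.53, and their sum of 734 to 921 CPM in E13.5 brain and 375 to 429 CPM in P7 brain was moved mostly by Tubb3, at 284 to 357 CPM and 32.9 to 40.8 CPM. All 6 genes of myelinating oligodendrocytes rose with age in brain, and all 6 were lower in brain than in spinal cord at P7, with sums of 1921 to 4520 CPM and 19885 to 26767 CPM. P7 brain replicate 3 held the highest of these brain sums, with Mbp at 1325 CPM against 527 and 534 CPM, and was also the P7 brain library with the least Emx1, Emx2, Nr2e1, Lhx2, Otx1 and Pax6. Without it Lhx2 was the one member to lose its call for age in brain, and the part of these markers in the members' levels was not tested. In bulk libraries fewer cells of a type and less RNA per cell cannot be told apart.

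Upstream sequence is shown for 3 of the genes with different courses, Lhx2 (kept in P7 brain at a reduced level), Eomes (lost) and Pax6 (brought to the spinal cord level). These are the members with a RefSeq window (GRCm38.p6) that lay wholly outside the annotated gene, each 250 bases before a transcript start on the plus strand, 5′ to 3′, with CG dinucleotides in capitals. The Pax6 window lies inside the span of the antisense gene Pax6os1. RefSeq windows were matched for 8 of the 9 genes, 13 windows in all, and Otx1 had none.
Lhx2, chr2:38339031-38339280: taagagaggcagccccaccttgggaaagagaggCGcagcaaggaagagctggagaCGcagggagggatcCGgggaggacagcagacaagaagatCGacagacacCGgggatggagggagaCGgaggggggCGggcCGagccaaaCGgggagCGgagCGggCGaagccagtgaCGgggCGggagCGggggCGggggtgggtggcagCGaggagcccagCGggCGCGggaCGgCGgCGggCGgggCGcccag
Eomes, chr9:118477939-118478188: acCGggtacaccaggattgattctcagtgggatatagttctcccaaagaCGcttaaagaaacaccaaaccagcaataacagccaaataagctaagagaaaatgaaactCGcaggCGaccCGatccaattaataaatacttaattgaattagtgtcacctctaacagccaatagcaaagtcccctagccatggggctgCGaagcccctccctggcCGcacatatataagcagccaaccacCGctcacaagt
Pax6, chr2:105668646-105668895: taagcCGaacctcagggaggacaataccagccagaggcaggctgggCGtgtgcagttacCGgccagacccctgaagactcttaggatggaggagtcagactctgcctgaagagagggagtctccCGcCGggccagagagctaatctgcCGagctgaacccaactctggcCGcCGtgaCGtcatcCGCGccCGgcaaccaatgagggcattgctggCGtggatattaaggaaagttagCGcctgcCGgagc

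The Lhx2 window held 25 CG dinucleotides and 72.8% G and C, the Eomes window 8 and 46.4%, and the Pax6 window 15 and 60.8%, against a median of 6 CG over 32851 windows of that length. The GC box GGGCGG, searched on both strands, was in 3 of the 13 windows (Emx1, Emx2 and this one of Lhx2) and in 32.7% of all windows. The homeodomain core TAATTA was found in 2 of the 13, both of Otx2, and in 4.84% of all. TAATCC, the core bound by Otx-type homeodomains, was in 1 of the 13, an Otx2 window that also held TAATTA, and in 6.25% of all. The T-box element TCACACC was in 0 of the 13 and 3.33% of all. These matches describe the letters only, and binding was not measured.

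At E13.5 all 9 genes were higher in brain than in spinal cord, and at P7 they had divided. On average Nr2e1, Emx2 and Otx1 stayed within 2-fold of their E13.5 brain level, at 89.6%, 73.5% and 63.4% of it. Lhx2 fell to 44.8%, Emx1 to 15.4% and Pax6 to 17.3%, and Otx2, Lhx9 and Eomes to 4.92%, 1.08% and 0.200%. Of the 9, 5 genes, namely Nr2e1, Lhx2, Emx2, Otx1 and Emx1, were still higher in brain than in spinal cord at P7.

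Calls were made with limma on log2(CPM + 0.5) over the 18319 genes that reached 0.7 CPM in 3 or more libraries, at a Benjamini-Hochberg adjusted p under 0.05 and a change of more than 2-fold. All 9 members passed this filter, Eomes and Otx2 only through E13.5 brain, where they were high, so that a difference for these 2 was built into the filter. From E13.5 to P7 in brain 6 members fell and 0 rose, while 16.7% of all tested genes were called lower and 11.0% higher. The members' median change was −2.40 on the log2 scale, beside −0.19 over all tested genes. With TMM rescaling, another way of setting library sizes, the latter median was −0.02, because the deposited scaling factors of the 3 P7 brain libraries lay 13.1% to 16.3% above those of TMM. In spinal cord 2 members fell (Lhx2 and Lhx9) and 0 rose, beside 18.2% lower and 16.9% higher over all genes, with medians of −0.16 and 0.12. Brain exceeded spinal cord for 9 of 9 members at E13.5, where 3.53% of all genes were called higher in brain and 5.17% lower, with medians of 4.02 and 0.05. At P7 it did so for 5 members, beside 2.27% of genes higher and 4.35% lower, with medians of 2.05 and −0.19. The brain minus spinal cord difference shrank from E13.5 to P7 for 5 members and grew for 0, beside 9.66% and 6.66% of all genes, with medians of −2.03 and −0.24. Under TMM 544 genes were higher and 619 lower in brain at P7, against 416 and 797 as deposited, and the region difference grew for 1515 genes and shrank for 1241, against 1220 and 1770. The comparisons share libraries, so their counts are not independent of each other.

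**Figure D1:**
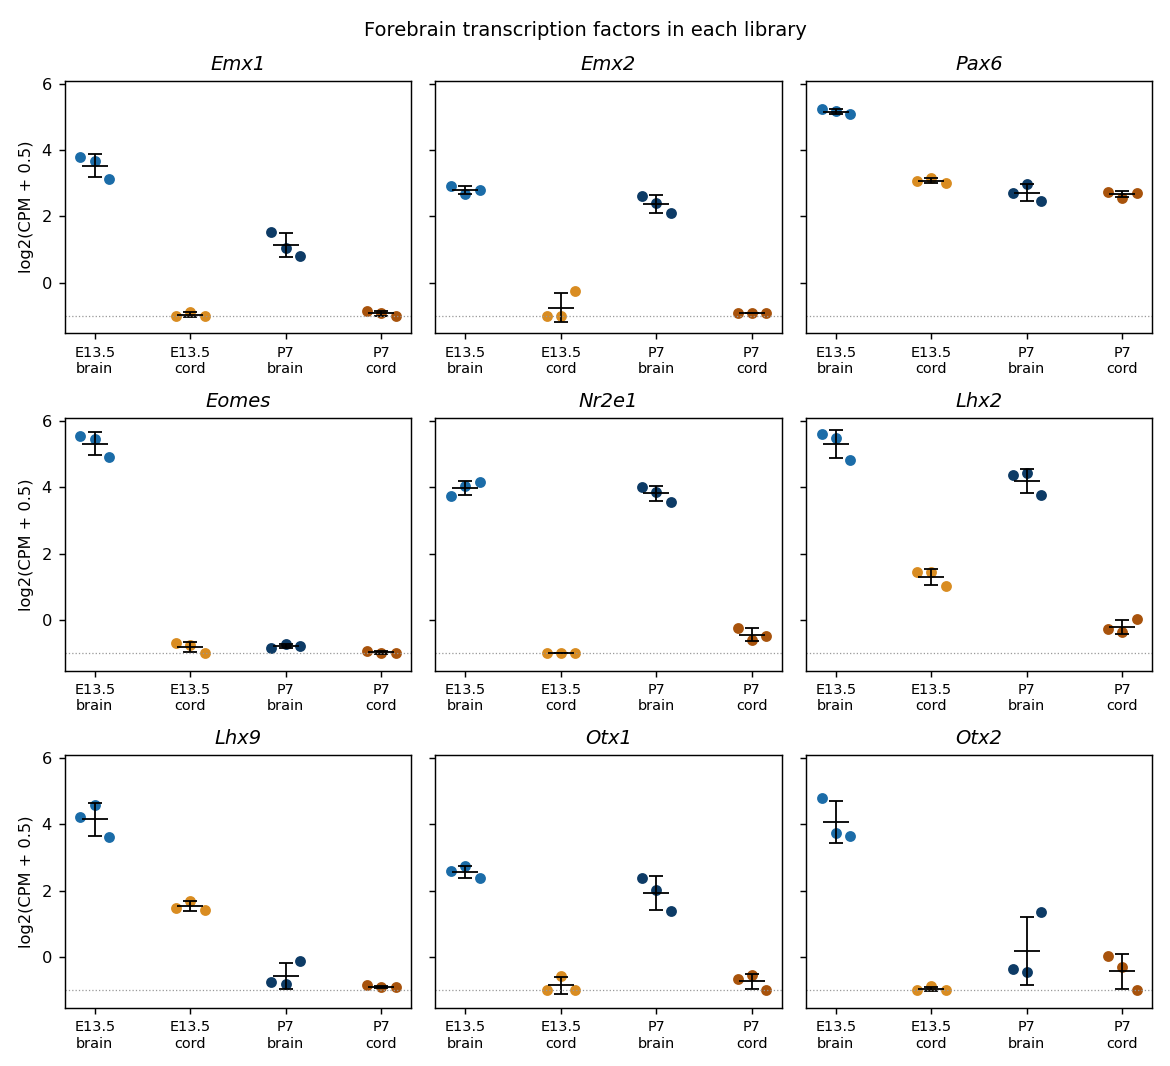
Level of each of the 9 genes in each library as log2(CPM + 0.5), with 1 panel per gene and the groups on the x axis (cord, spinal cord). Points are libraries, black bars are the mean and SD of 3, and the dotted line is the value of 0 reads. Nr2e1, Emx2 and Otx1 have P7 brain means within 2-fold of those of E13.5 brain, Eomes and Lhx9 fall to near the line, and Pax6 has similar levels in both P7 groups.

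Nr2e1 (ENSMUSG00000019803, chr10:42561963-42583632, minus strand) encodes an orphan nuclear receptor of neural stem cells and was the member kept at the highest share of its embryonic level. Its level was 12.8, 15.8 and 17.2 CPM in E13.5 brain and 15.7, 13.9 and 11.4 CPM in P7 brain. The ages overlapped, and P7 brain held 89.6% ± 19.5 (SD, n = 3 per age) of the E13.5 level. The log2 change was −0.15 ± 0.17 (SE) with a 95% interval of −0.53 to 0.22 (limma, adjusted p = 0.456), and with TMM rescaling it turned to 0.03. In spinal cord it had 0 reads in the 3 E13.5 libraries and 0.351, 0.154 and 0.217 CPM at P7, a total of 25 reads. With the 0 reads of E13.5 spinal cord set to a floor of 3 reads over the group, brain exceeded it 229-fold. At P7 brain exceeded spinal cord 55.1-fold (95% counting interval 37.1 to 85.4). Both region differences were called, at 4.97 ± 0.17 and 4.25 ± 0.17 on the log2 scale (limma, adjusted p = 1.58e-09 and 2.51e-08). The E13.5 to P7 ratio in spinal cord had a 95% counting interval of 0 to 0.358. With the same floor for E13.5, the low P7 spinal cord level was 3.71-fold above that of E13.5. On the log2(CPM + 0.5) scale this came to 0.56 ± 0.17 (limma, adjusted p = 0.0117), under the 2-fold line, whereas limma-voom, edgeR and DESeq2 on the recovered reads called it higher (adjusted p = 0.00663, 0.00227 and 0.00205). The change of its region difference, −0.71 ± 0.24, was not called either, and the same 3 tools called it lower (adjusted p = 0.0194, 0.00884 and 0.00631).

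Emx2 (ENSMUSG00000043969, chr19:59458372-59465357, plus strand), a homeobox gene of the caudal and medial cortex and hippocampus, was the second gene with no call for age in brain. It stood at 7.08, 5.84 and 6.44 CPM in E13.5 brain and at 5.66, 4.76 and 3.80 CPM in P7 brain. The groups did not overlap, and P7 held 73.5% ± 16.1 of the E13.5 level. The log2 change was −0.42 ± 0.21 with an interval of −0.88 to 0.05 (limma, adjusted p = 0.106). Spinal cord held 2 reads over the 3 E13.5 libraries, both in replicate 3, and 3 reads at P7. Brain exceeded spinal cord by 3.55 ± 0.21 at E13.5 and 3.29 ± 0.21 at P7 on the log2 scale (limma, adjusted p = 1.67e-07 and 5.39e-07), and that difference changed by −0.25 ± 0.30 (limma, adjusted p = 0.537). Its exons overlap those of the antisense gene Emx2os, and the sources do not say if reads were counted by strand. Emx2os was at 2.52, 3.95 and 3.27 CPM in E13.5 brain and 3.73, 3.74 and 2.69 CPM in P7 brain, and at most 0.133 CPM in any spinal cord library. Per kb of exon Emx2os stood at 0.307 ± 0.096 of Emx2 in brain at E13.5 and at 0.428 ± 0.038 by P7 (SD, n = 3).

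Otx1 (ENSMUSG00000005917, chr11:21994764-22002897, minus strand), an orthodenticle homeobox gene of anterior neural tissue and deep-layer cortex, was lower on average at P7 within a wide spread. Its level was 5.51, 6.19 and 4.67 CPM in E13.5 brain and 4.73, 3.54 and 2.11 CPM in P7 brain. The highest P7 library exceeded the lowest E13.5 library, and P7 held 63.4% ± 25.6 of the E13.5 level. The log2 change of −0.64 ± 0.25 had an interval of −1.18 to −0.10 (limma, adjusted p = 0.0401) and lay under the 2-fold line. With TMM it was −0.47 (limma, adjusted p = 0.128). Spinal cord libraries held 0 to 0.185 CPM. The region difference was 3.42 ± 0.25 at E13.5 and 2.66 ± 0.25 at P7 (limma, adjusted p = 8.65e-07 and 9.94e-06), and its change of −0.76 ± 0.35 was not called (limma, adjusted p = 0.104).

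Lhx2 (ENSMUSG00000000247, chr2:38339281-38369733, plus strand), a LIM-homeobox selector of cortical identity, fell in both regions and stayed far higher in brain. It was measured at 48.5, 44.6 and 28.0 CPM in E13.5 brain and at 20.2, 20.9 and 13.0 CPM in P7 brain. All P7 libraries lay below all E13.5 libraries, at 44.8% ± 16.2 of their level. The change was called lower, at −1.13 ± 0.24 on the log2 scale (limma, adjusted p = 0.00133), but it lay close to the 2-fold line. It was −0.94 with TMM, −0.93 with median-ratio scaling, −0.98 by limma-voom, −0.96 by edgeR and −0.97 by DESeq2, where the 2-fold criterion was not met. Without E13.5 brain replicate 1 it was −0.98 and without P7 brain replicate 3 it was −0.92. In spinal cord Lhx2 was at 2.20, 2.22 and 1.52 CPM at E13.5 and 0.324, 0.278 and 0.527 CPM at P7, a called change of −1.499 ± 0.24 (limma, adjusted p = 0.000112). The brain to spinal cord ratio was 19.3 (counting interval 15.7 to 23.9) at E13.5 and 47.5 (34.4 to 67.3) at P7. On the log2(CPM + 0.5) scale the region difference was 4.02 ± 0.24 at E13.5 and 4.39 ± 0.24 at P7, and its change of 0.37 ± 0.34 was not called (limma, adjusted p = 0.415). That change was 1.57 by limma-voom (adjusted p = 0.1003), and it was called higher by edgeR at 1.56 (adjusted p = 0.0208) and by DESeq2 at 1.63 (adjusted p = 0.00198). The antisense gene Gm27197 lies within Lhx2 without exon overlap and reached 0.618 CPM at most.

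Emx1 (ENSMUSG00000033726, chr6:85187438-85204462, plus strand), the homeobox gene whose expression marks the dorsal cortical lineage, fell in brain and stayed regional. It was at 13.2, 12.2 and 8.31 CPM in E13.5 brain and 2.36, 1.59 and 1.24 CPM in P7 brain, with no overlap. The P7 level was 15.4% ± 6.2 of that at E13.5, and the log2 change was −2.40 ± 0.21 (limma, adjusted p = 8.33e-07). Spinal cord held 1 read over the 3 E13.5 libraries and 3 reads over those of P7. The region difference was 4.49 ± 0.21 at E13.5 and 2.05 ± 0.21 at P7 (limma, adjusted p = 2.13e-08 and 2.29e-05). Its change of −2.44 ± 0.30 was called (limma, adjusted p = 7.12e-05), but not by limma-voom, edgeR or DESeq2 (adjusted p = 0.161, 0.214 and 0.182), and the ratios of pooled reads were 514 (counting interval 91.9 to 20326) and 58.0 (19.5 to 284).

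The paralogues Emx1 and Emx2 therefore changed their order in brain. Per kb of exon Emx1 stood at 2.40 ± 0.56 times Emx2 in E13.5 brain (1.78 to 2.86 over libraries) and at 0.493 ± 0.069 in P7 brain (0.449 to 0.573). Otx2 stood at 4.10 ± 1.95 times Otx1 per kb in E13.5 brain and at 0.470 ± 0.677 in P7 brain, where the ratio was 1.25 in replicate 3 and 0.0741 in the lowest library. Lhx9 stood at 0.205 ± 0.036 of Lhx2 per kb in E13.5 brain and at 0.00618 ± 0.00764 in P7 brain.

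Pax6 (ENSMUSG00000027168, chr2:105668900-105697364, plus strand), a paired-box gene of cortical radial glia and also of the ventral spinal cord, was the one member above 5 CPM in all 12 libraries. It was at 37.3, 35.4 and 33.3 CPM in E13.5 brain and 5.997, 7.34 and 5.02 CPM in P7 brain. In spinal cord it was at 7.86, 8.45 and 7.59 CPM at E13.5 and 6.10, 5.40 and 6.05 CPM at P7. E13.5 brain was far above the other 3 groups, E13.5 spinal cord lay slightly above both P7 groups without overlap, and the P7 groups overlapped each other. In brain it fell by 2.45 ± 0.13 on the log2 scale (limma, adjusted p = 1.42e-08), to 17.3% ± 3.4 of the E13.5 level. In spinal cord the change was −0.42 ± 0.13 (limma, adjusted p = 0.0147), under the 2-fold line. The region difference was 2.08 ± 0.13 at E13.5 (limma, adjusted p = 3.12e-07) and 0.05 ± 0.13 at P7, with an interval of −0.25 to 0.34 (limma, adjusted p = 0.835). The ratio of pooled reads was 4.36 (counting interval 3.90 to 4.89) at E13.5 and 1.03 (0.918 to 1.15) at P7. The change of the region difference, −2.03 ± 0.19 (limma, adjusted p = 1.14e-05), was called in all 27 alternatives. With TMM the P7 difference was 0.22 (limma, adjusted p = 0.307). The antisense gene Pax6os1 overlaps Pax6 outside its exons and was at most 0.333 CPM.

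Eomes (ENSMUSG00000032446, chr9:118478212-118486132, plus strand), the T-box gene of cortical intermediate progenitors, had the largest fall of the 9 in brain. It was at 46.4, 43.4 and 29.7 CPM in E13.5 brain and 0.0606, 0.0992 and 0.0792 CPM in P7 brain, the latter resting on 8 reads against 2518. The log2 change was −6.09 ± 0.18 (limma, adjusted p = 2.05e-10), and the ratio of pooled reads between the ages was 510 (counting interval 258 to 1182). Spinal cord held 4 reads at E13.5 and 1 read at P7. The change there was −0.16 ± 0.18 (limma, adjusted p = 0.456), and limma-voom, edgeR and DESeq2 called it lower (adjusted p = 0.0282, 0.0411 and 0.0329). The region difference was 6.13 ± 0.18 at E13.5 (limma, adjusted p = 4.69e-10) and 0.19 ± 0.18 at P7 (limma, adjusted p = 0.474). Its change was −5.94 ± 0.25 (limma, adjusted p = 1.03e-07), lost by edgeR alone among the 27 alternatives (adjusted p = 0.0734). Eomes had passed the filter only through E13.5 brain, so that an excess in that group was built into it.

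Lhx9 (ENSMUSG00000019230, chr1:138825186-138848577, minus strand), a LIM-homeobox gene, fell in both regions. In brain it went from 18.2, 23.5 and 11.9 CPM at E13.5 to 0.0909, 0.0661 and 0.422 CPM at P7, and in spinal cord from 2.26, 2.76 and 2.19 CPM to 0.0540, 0.0308 and 0.0310 CPM. The falls were 4.71 ± 0.25 in brain and 2.43 ± 0.25 in spinal cord on the log2(CPM + 0.5) scale (limma, adjusted p = 1.01e-08 and 2.01e-06). P7 brain held 1.08% ± 1.17 of the E13.5 level, and 0.439% without replicate 3, its highest library. Brain exceeded spinal cord by 2.61 ± 0.25 at E13.5 (limma, adjusted p = 7.68e-06) and by 0.33 ± 0.25 at P7 (limma, adjusted p = 0.351). The change of that difference, −2.29 ± 0.35 (limma, adjusted p = 0.000324), depended on the scale. The brain to spinal cord ratio of pooled reads was 7.30 (counting interval 6.01 to 8.94) at E13.5 and 5.28 (1.78 to 21.2) at P7, from 21 and 4 reads. On recovered reads the change was −0.93 by limma-voom, −0.37 by edgeR and −0.18 by DESeq2 (adjusted p = 0.511, 0.901 and 0.905). DESeq2 also called Lhx9 higher in brain than in spinal cord at P7, at 2.60 (adjusted p = 0.0129). Of 4 tested genes of dI1 spinal interneurons, a dorsal class that expresses Lhx9, 4 fell in spinal cord, with Robo3 at −7.51 ± 0.20, Pou4f1 at −3.39 ± 0.25 and Barhl2 at −1.95 ± 0.18 (limma, adjusted p = 6.23e-11, 1.02e-07 and 6.76e-07). Barhl1, the remaining gene, had passed the filter only through E13.5 spinal cord, so that its fall there was built into it. The list, with Atoh1 included, summed to 99.0 to 137 CPM in E13.5 spinal cord, where Robo3 alone was at 112, 78.5 and 107 CPM. In P7 spinal cord the list summed to 1.33 to 1.62 CPM, and its part in the Lhx9 fall was not tested.

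Otx2 (ENSMUSG00000021848, chr14:48657677-48673819, minus strand), the homeobox gene of anterior neural tissue that is also known from choroid plexus, fell in brain and had the widest spread of the 9 there. It was at 27.2, 13.0 and 11.96 CPM in E13.5 brain and 0.273, 0.231 and 2.06 CPM in P7 brain, with no overlap. The log2 change was −3.88 ± 0.45 (limma, adjusted p = 1.03e-05). P7 held 4.92% ± 6.48 of the E13.5 level, and 1.45% without P7 brain replicate 3. Spinal cord held 1 read over the E13.5 libraries and 0.513, 0.308 and 0 CPM at P7, a change of 0.53 ± 0.45 that was not called (limma, adjusted p = 0.312). The region difference was 5.02 ± 0.45 at E13.5 (limma, adjusted p = 5.27e-06) and 0.61 ± 0.45 at P7, with an interval of −0.38 to 1.59 (limma, adjusted p = 0.346). Its change of −4.41 ± 0.64 (limma, adjusted p = 0.000231) was called in all 27 alternatives. Otx2 had passed the filter only through E13.5 brain, so that an excess in that group was built into it. The exons of Otx2 overlap those of Otx2os1 on the other strand, a noncoding gene at 1.66, 0.791 and 0.590 CPM in E13.5 brain and at most 0.0925 CPM at P7.

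Genes of the cortical hem and choroid plexus varied widely between libraries and are given beside Otx2. Ttr, the transthyretin gene that choroid plexus expresses at high level, was at 267, 10.1 and 36.2 CPM in E13.5 brain and at 54.7, 54.8 and 484 CPM in P7 brain, so that at each age the brain library with most Ttr was also that with most Otx2. The other libraries did not keep this order, since E13.5 brain replicate 2 had the least Ttr of its group and more Otx2 than replicate 3. The list's mean sum was 222 CPM in E13.5 brain and 223 CPM in P7 brain, each raised by the library with most Ttr. Without Ttr the list summed to 161.6, 84.1 and 106 CPM in E13.5 brain and to 20.7, 21.2 and 35.1 CPM in P7 brain. That sum was moved mostly by Msx1, at 69.8, 56.0 and 64.4 CPM in E13.5 brain and 4.54, 5.29 and 5.73 CPM in P7 brain. In P7 spinal cord Ttr was at 145, 144 and 0.372 CPM, and the library with least Ttr was the one with no Otx2 reads. All 10 genes of the list passed the filter, and 5 of them fell in brain and 0 rose, 3 of the 5 having passed only through E13.5 brain. The list summed to 94.3 to 429 CPM in E13.5 brain, 12.5 to 22.6 CPM in E13.5 spinal cord, 75.5 to 519 CPM in P7 brain and 9.06 to 157 CPM in P7 spinal cord, and no list member was at 0 throughout a group. Without the brain library with most Ttr at each age, an alternative chosen after the data were seen, Otx2 still fell in brain, to 2.02% of its E13.5 level, and Lhx2 stood at −0.77, short of a call. What part such cells had in the Otx2 levels was not tested.

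**Figure D2:**
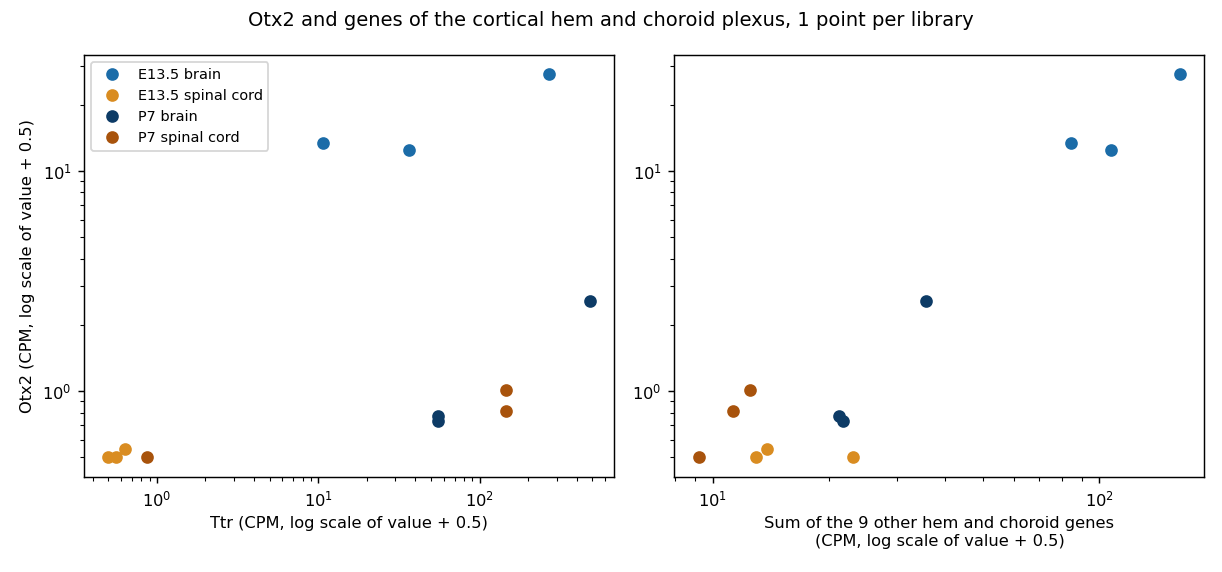
Otx2 against Ttr (left) and against the summed level of the 9 other hem and choroid plexus genes (right), in CPM on log axes after adding 0.5, with 1 point per library coloured by group. E13.5 brain libraries lie at 11.96 to 27.2 CPM of Otx2, and P7 brain replicate 3 lies at 2.06 CPM with 484 CPM of Ttr. Msx1 had the highest level of the 9 other genes in each E13.5 brain library.

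The change with age and the region difference at P7 split the members into groups. Eomes, Lhx9, Otx2 and Pax6 all fell in brain and had no call between regions at P7 in the main fit. Of these, only Pax6 had a P7 brain to spinal cord ratio of pooled reads near even, at 1.03. The ratio was 5.28 (counting interval 1.78 to 21.2) for Lhx9 and 3.26 (2.13 to 5.13) for Otx2. For Eomes it was 8.04 (1.08 to 357), from 8 reads and 1 read. Near the floor the log2(CPM + 0.5) scale understates such differences. Emx1 and Lhx2 fell and were still called higher in brain, and Emx2, Otx1 and Nr2e1 were not called for age and were higher in brain. The P7 brain values enter both measures, so this arrangement describes the members and is no test of a relation between the measures. The order of abundance per kb of exon also shifted. In E13.5 brain it ran from Eomes at 9.58 ± 2.15 and Lhx2 at 9.18 ± 2.47 CPM per kb through Emx1 at 5.14 ± 1.18, Otx2 at 4.11 ± 2.02 and Nr2e1 at 4.11 ± 0.60 to Pax6 at 3.02 ± 0.17, Emx2 at 2.15 ± 0.21, Lhx9 at 1.88 ± 0.61 and Otx1 at 1.01 ± 0.14. The differences within the pairs Eomes and Lhx2, Emx1 and Otx2, Otx2 and Nr2e1, and Emx2 and Lhx9 were smaller than the larger SD of the pair. In P7 brain the order ran from Lhx2 at 4.11 ± 0.99 and Nr2e1 at 3.68 ± 0.59 CPM per kb to Emx2 at 1.58 ± 0.31, Emx1 at 0.792 ± 0.263, Otx1 at 0.638 ± 0.241, Pax6 at 0.523 ± 0.0997 and Otx2 at 0.202 ± 0.247. Lhx9 at 0.0203 ± 0.0210 and Eomes at 0.0192 ± 0.0046 came last. There, the neighbours Lhx2 and Nr2e1, Emx1 and Otx1, Otx1 and Pax6, Otx2 and Lhx9, and Lhx9 and Eomes differed by less than the larger SD. Length was that of all annotated exons of a gene merged, from 2184 bases for Emx1 to 11694 for Pax6. Both orders depend on that choice, since without division by length E13.5 brain held 35.3 CPM of Pax6 and 17.4 CPM of Otx2.

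**Figure D3:**
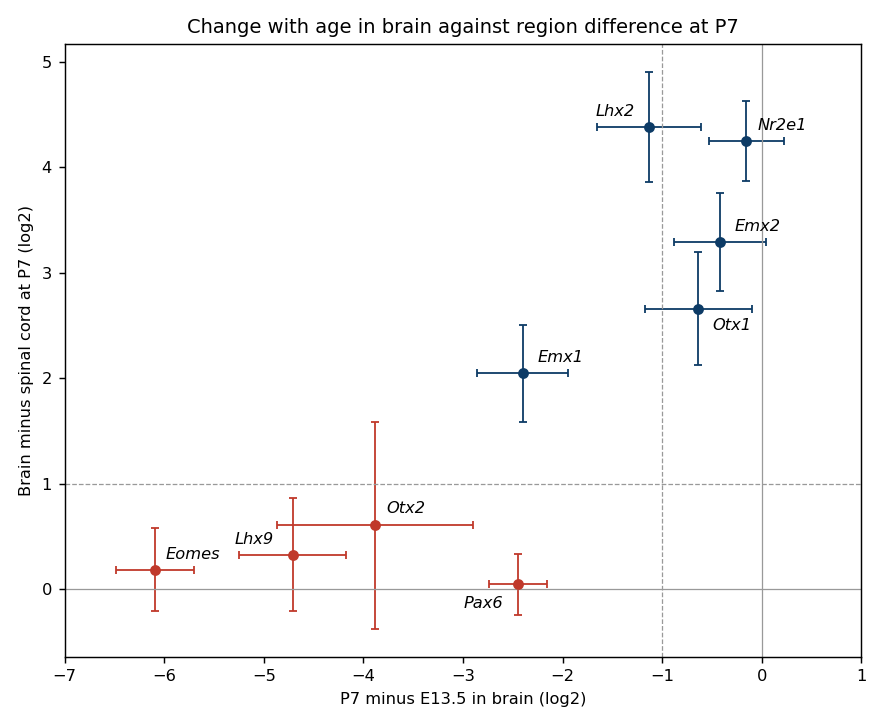
Change from E13.5 to P7 in brain (x axis) against the brain minus spinal cord difference at P7 (y axis), both in log2, for the 9 genes, with 95% intervals of the limma fit. Blue points were called higher in brain at P7, red points were not, and dashed lines mark 2-fold. Nr2e1 lies at −0.15 and 4.25, Pax6 at −2.45 and 0.05, and Eomes at −6.09 and 0.19.

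Other forebrain patterning factors were read from a list of 12 genes, of which 11 passed the filter. In brain 8 fell with age and 1 rose, with a median of −2.24. Of those 8, 5 (Six3, Fezf1, Fezf2, Dmrt3 and Sp8) had passed the filter only through E13.5 brain, so that their fall was built into it. Gli3, a zinc-finger effector of Hedgehog signalling, changed by −4.07 ± 0.16 (limma, adjusted p = 1.12e-09). Fezf2, a zinc-finger factor of deep-layer cortical neurons, was at 12.5, 9.05 and 6.86 CPM in E13.5 brain and at most 0.485 CPM elsewhere. Dmrta1 was the one that rose, by 2.05 ± 0.25 (limma, adjusted p = 1.81e-05). At E13.5 9 of the 11 were higher in brain than in spinal cord and 0 lower, and at P7 2 were higher and 0 lower. These included Dmrta2, a doublesex-related factor of the cortical hem and medial cortex, at 2.58 ± 0.23 (limma, adjusted p = 7.61e-06). Dmrta2 was at 13.1, 9.53 and 8.04 CPM in E13.5 brain and 7.09, 6.28 and 5.18 CPM in P7 brain, and at most 0.667 CPM in spinal cord. The region difference shrank for 7 of the 11 and grew for 0, beside 5 and 0 of the 9 members.

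Genes of cortical neurogenesis and projection neurons also fell with age. Of 10 tested, 9 fell in brain and 0 rose, with a median of −3.36, and Neurog2, a proneural factor, changed by −4.95 ± 0.21, Neurod6 by −4.67 ± 0.15 and Neurod2 by −3.63 ± 0.34 (limma, adjusted p = 2.24e-09, 2.81e-10 and 1.55e-06). The list summed to 230 to 330 CPM in E13.5 brain and 24.3 to 25.2 CPM in P7 brain, where Neurog1, which had passed the filter only through E13.5 brain, was the one at 0 in every library, and what part such cells had in the Eomes and Emx1 levels was not tested. At P7 5 of the 10 were higher in brain than in spinal cord and 1 was lower, with Neurod6 at 2.11 ± 0.15 and Neurod2 at 1.97 ± 0.34 among the former (limma, adjusted p = 8.62e-07 and 0.00113). Of 8 genes of Cajal-Retzius cells, which are early cortical neurons, 7 fell in brain and 0 rose, 1 of them (Trp73) having passed the filter only through E13.5 brain. The list was not particular to brain, since 5 of the 8 were lower in brain than in spinal cord at E13.5, with sums of 162 to 193 CPM and 441 to 496 CPM, and 6 of the 8 fell in spinal cord too. Pax6, Emx2, Lhx2 and Nr2e1 are known from radial glia, and the summed level of 10 genes of radial glia and astrocytes was 2231 to 2767 CPM in E13.5 brain, 1661 to 1912 CPM in E13.5 spinal cord, 1376 to 1844 CPM in P7 brain and 993 to 1086 CPM in P7 spinal cord, with no member at 0 throughout a group. In brain 6 of these 10 rose with age and 3 fell, with a median of 1.17, and the 3 that fell were Gja1, Vim and Nes, of which Vim and Gja1 had the highest mean CPM of the list in E13.5 brain.

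**Figure D4:**
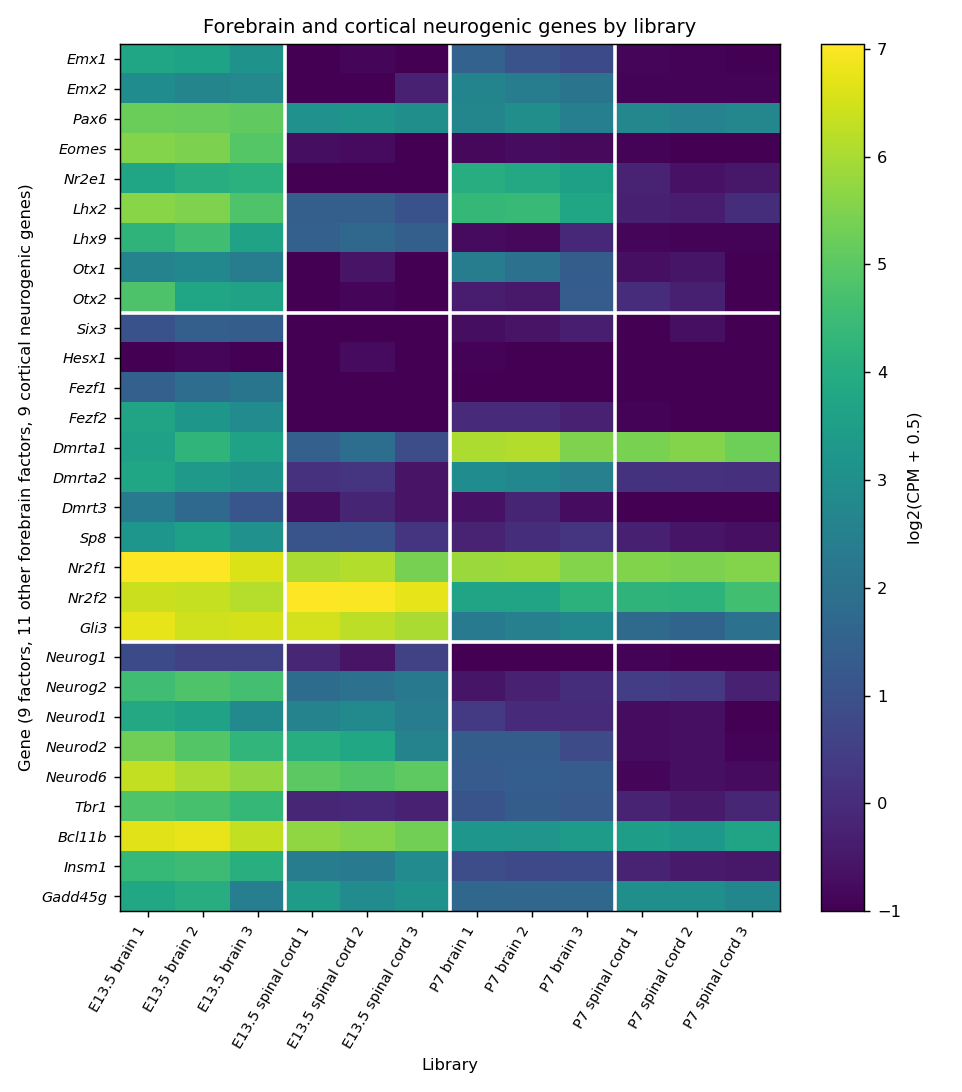
Level of the 9 members (top), 11 other forebrain factors (middle) and 9 cortical neurogenic genes (bottom) in each of the 12 libraries, as log2(CPM + 0.5) on the colour scale. Dmrta2 keeps P7 brain levels above spinal cord as Nr2e1, Lhx2, Emx2 and Otx1 do, while Fezf2 and Neurog2 are low in P7 brain.

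Relatives of the members in the paired-box, LIM-homeobox, T-box and orthodenticle families were also counted. Of 15 such genes 12 passed the filter, and in brain 7 fell with age and 0 rose, with Tbr1 at −3.39 ± 0.17 (limma, adjusted p = 6.30e-09). Lhx6 and Lhx8, also among the 7, had passed the filter only through E13.5 brain, and 6 others of the 12 only through E13.5 spinal cord. In spinal cord 9 of the 12 fell. At E13.5 3 were higher in brain and 9 in spinal cord, and at P7 2 were higher in brain and 1, Pax3, lower, at −2.74 ± 0.28 (limma, adjusted p = 2.23e-05). Of 12 cofactors that LIM-homeodomain and other homeodomain TFs work with, 3 fell in brain (Rcor2, Tle1 and Tle2) and 0 rose, a share of 25.0% beside the 16.7% of all tested genes that fell, from which nothing is read about the cofactors. Of 6 tested factors of thalamus and midbrain 2 fell in brain, Sim1 at −3.33 ± 0.21 and Gbx2 at −2.54 ± 0.23 (limma, adjusted p = 5.34e-08 and 1.25e-06), and 0 rose. That is 33.3% beside the 16.7% of all tested genes, and nothing is read from so short a list. In spinal cord 4 of the 6 fell and 2 rose, beside 18.2% lower and 16.9% higher over all tested genes. Foxb1 had passed the filter only through E13.5 spinal cord and En2 only through P7 spinal cord. The fall of Foxb1 and the rise of En2 there were thus built into the filter.

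The genes with the most similar profiles to each member were found by the root mean square (RMS) difference of centred log2(CPM + 0.5) over the 12 libraries, among 14391 genes. Otx1 was nearest to Dmrta2 (RMS 0.25), Emx2os (0.36) and Emx2 (0.38), and Emx2 to Otx1 (0.38), Dmrta2 (0.45) and Emx2os (0.45). Nr2e1 was near to Emx2 (0.69) and Slc17a7 (0.85), and Lhx2 to Emx2 (0.75), Emx1 (0.86) and Otx1 (0.87). Emx1 was nearest to Tbr1 (0.42) and Six3os1 (0.42), and Otx2 to Fezf2 (0.59), Tbr1 (0.61) and Six3os1 (0.62). Pax6 was nearest to Kitl (0.20), Cdon (0.23) and Ubl4b (0.28), Lhx9 to Neurog2 (0.39), Frem1 (0.43) and Slc18a2 (0.47), and Eomes to Dlx1as (0.35), Dlx1 (0.58) and Sox1ot (0.71). The median RMS over all genes ranged from 1.103 for Pax6 to 2.70 for Eomes. These distances are descriptions over 12 libraries that share 4 group means.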

How the data were processed

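The deposited table held 47072 rows and 12 columns, 1 per library (0 columns of values not used). Groups and replicate numbers came from the sample titles. Per the methods and submitters' notes, the authors aligned stranded read pairs to mm10 with STAR 2.5.0a, counted GENCODE M8 genes with featureCounts 1.5.0-p1, sharing multimapping reads fractionally with rounding, and deposited a normalized signal, CPM on rescaled library sizes. Whether counting used the strand is not given in the sources used here. In every library 100% of values were whole multiples of 1 read (tolerance 0.01 read), so counts were recovered. Intervals of the pooled-read ratios cover counting error only, and those of log2 changes come from the limma fit. Symbols and positions came from GENCODE M21 (46574 identifiers).

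limma 3.58.1 (R 4.3.3) with an intensity trend was fitted to log2(CPM + 0.5), which understates changes of low genes, over all 12 libraries with 1 mean per group and 5 contrasts. limma-voom, edgeR 4.0.16 and DESeq2 1.42.0 on recovered reads, other scalings, filters and pseudocounts, a replicate block and single-library omissions were alternatives. Scripts were tested on simulated data. Replicates were pools of animals. P7 replicates 1 and 2 of each region resembled each other closely, so p-values may measure partly technical spread, and averaging them changed no member's call.

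Members and lists were chosen with earlier results of these data known. Named were all members, up to 3 list genes with the largest changes in the comparison described, overlapping genes and the 3 nearest profiles per member. Dmrta2, Ttr and Msx1 levels per library were singled out after their values were seen. Some genes that this rule or the lists cover are not named here.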

Additional observations from a re-analysis of the deposited data

Results flagged for a closer look

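For 5 genes the change from E13.5 to P7 differed between brain and spinal cord by a test of the difference itself in the limma fit. The brain minus spinal cord difference changed by −2.44 for Emx1, −2.03 for Pax6, −5.94 for Eomes, −2.29 for Lhx9 and −4.41 for Otx2 on the log2(CPM + 0.5) scale (limma, adjusted p = 7.12e-05, 1.14e-05, 1.03e-07, 0.000324 and 0.000231). In E13.5 brain each of the 5 was higher in 3 of 3 libraries than in any P7 brain library. The same held for Emx2 and Lhx2, which were not flagged, so it does not set the 5 apart. The share of all genes without such overlap was not computed, and Eomes and Otx2 had passed the filter only through E13.5 brain. Pax6 and Otx2 were called in all 27 alternatives, whereas Emx1 and Lhx9 were not called by limma-voom, edgeR or DESeq2 and Eomes not by edgeR.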

How the results depend on the processing

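Over 45 member results and 27 alternatives, 1182 of 1215 values stayed called or not called as in the main fit. Another 15 lost the call, 18 gained one and 0 reversed a called value. The 1182 include values without a call whose sign changed, such as Nr2e1 with age in brain (−0.27 to 0.17). All 9 members were called higher in brain at E13.5 under all 27 and the same count of 5 held at P7 in each single-library omission, where the members called in brain with age numbered 5 to 6 (Lhx2 was lost without E13.5 brain replicate 1 or P7 brain replicate 3), those in spinal cord 2 to 2 and those with a changed region difference 5 to 5. In spinal cord with age 4 members were called, in place of 2, by limma-voom, edgeR and DESeq2 (Nr2e1 higher, and Lhx2, Lhx9 and Eomes lower) and also 4 without a fold threshold. Dropping that threshold moved the counts over all genes to 11227 and 12822 for age in brain and spinal cord, 5979 and 5491 for region at E13.5 and P7, and 7290 where the region difference itself was compared between ages. With the replicate block the members called numbered 6, 2, 9, 5 and 5 over the same comparisons and no member's call changed. Same-numbered brain and spinal cord libraries correlated in their deviations at 0.08 to 0.41 at E13.5 and 0.01 to 0.04 at P7. Libraries with different numbers did so at −0.44 to 0.20 and −0.06 to 0.06. The main fit did not take the numbers to pair samples, and whether same-numbered E13.5 libraries share an effect was not tested. Depth limits the spinal cord values of Emx1, Emx2, Eomes, Nr2e1, Otx1 and Otx2, which rest on 0 to 29 reads per group, and that of Lhx9 at P7, which rests on 4. The causes of these changes were not tested.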
